A study of Mus musculus with 6 samples.

Results

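The PCTAIRE and PFTAIRE kinases and the Y cyclins that bind them were followed in cultured neural stem cells (NSCs) with and without miR-151. The 7 genes, *Cdk14*, *Cdk15*, *Cdk16*, *Cdk17*, *Cdk18*, *Ccny* and *Ccnyl1*, were taken as a family by symbol from the 32493 Ensembl genes counted, and all 7 were found. The family was chosen by the measured difference between the genotypes, above all the low *Cdk18* counts in cko libraries, so the values of its members in that contrast are a description and carry no p-value. The RNA-seq libraries came from NSCs of E14.5 embryos of 2 genotypes. The cko embryos carried miR-151 flanked by loxP sites on both alleles and Emx1-IRES-Cre, a Cre driver of the dorsal telencephalon. The ctrl embryos, which the sample labels call wild type, had the same floxed alleles and no Cre. Both genotypes were on a C57BL/6J background, the cells came from the lateral ventricles, and RNA was taken after 3 generations in culture. The study describes the cko and ctrl NSCs as coming from littermates. The sources do not say which libraries share a litter, or whether those of a genotype came from separate embryos or cultures, so every p-value below measures the spread between these libraries, which may be technical. The deposited column of ctrl replicate 2 equalled the mean of ctrl libraries 1 and 3, rounded up, in 32493 of 32493 genes, and it was therefore counted in no n. The comparison was between ctrl libraries 1 and 3 and cko libraries 1, 2 and 3, with total counts of 17883796 to 23335736 per library.

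These kinases are relatives of the cell cycle CDKs with extensions on both sides of the kinase core. *Cdk16*, *Cdk17* and *Cdk18* encode the PCTAIRE kinases, and *Cdk14* and *Cdk15* the PFTAIRE kinases. CDK14 and CDK16 are switched on by cyclin Y, which is held at membranes by a lipid anchor, and the complex of CDK14 with cyclin Y is known for phosphorylating the Wnt co-receptor LRP6 around mitosis. PCTAIRE kinases are abundant in the brain, and CDK18 has been linked to the maturation of oligodendrocyte precursors.

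The family takes its name from a stretch in the kinase core that reads PSTAIRE in CDK1 and CDK2. In the longest annotated coding sequence of each gene (GENCODE M21), 21 bases encode it. They are printed with the second codon, by which the groups differ, in capitals.
*Cdk16*: cccTGTactgctatccgggaa
*Cdk17*: cccTGTacagctataagagaa
*Cdk18*: cccTGCactgctattcgagag
*Cdk14*: cctTTCacagccatcagggaa
*Cdk15*: cctTTCacagccatccgggaa
*Cdk1*: cccAGTactgcaattcgggaa
Of 21901 coding genes searched, only *Cdk16*, *Cdk17* and *Cdk18* (0.0137%) encoded PCTAIRE and only *Cdk14* and *Cdk15* (0.00913%) encoded PFTAIRE. On GRCm38 the run lies on the plus strand at chrX:20694725-20694745 in exon 6 of 16 for *Cdk16*, at chr10:93225029-93225049 in exon 7 of 17 for *Cdk17* and at chr1:59265662-59265682 in exon 4 of 14 for *Cdk15*. It lies on the minus strand at chr1:132119101-132119121 in exon 6 of 16 for *Cdk18* and at chr5:5195279-5195299 in exon 5 of 15 for *Cdk14*. Across the aligned coding bases, *Cdk18* was 71.7% identical to *Cdk16* and 71.3% to *Cdk17*, *Cdk16* and *Cdk17* were 68.8% identical, *Cdk14* and *Cdk15* were 64.1% identical, and *Ccny* and *Ccnyl1* were 71.2% identical. Pairs of a PCTAIRE and a PFTAIRE kinase were 62.5% (*Cdk15* and *Cdk18*) to 66.4% (*Cdk15* and *Cdk16*) identical, a range that includes the value of the PFTAIRE pair. No run of 50 bases was shared between members. *Cdk16* and *Ccny* shared no such run with a transcript of any other gene, and *Cdk18* shared 0.804% of its runs and *Cdk17* 4.44%, each with the transcript of an overlapping gene on the opposite strand. *Ccnyl1* shared 28.3%, most of it with the processed pseudogene *Gm16464*, which held 1 to 5 counts per library. *Ccnyl1* also shared 4.58% with *2810408I11Rik*, whose exons overlap it on the opposite strand. That gene held 21 and 24 counts in ctrl libraries 1 and 3 and 18, 64 and 50 in cko libraries 1, 2 and 3.

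Within the family, *Cdk18* was almost lost from cko NSCs, *Cdk14* and *Ccny* were lower by a smaller margin, and *Cdk16*, *Cdk17* and *Ccnyl1* overlapped between the genotypes. Counts were normalized by TMM in edgeR and are given as CPM, the count relative to library size. A gene was called when its Benjamini-Hochberg adjusted p was under 0.05 by the quasi-likelihood test of edgeR, run over the 16710 genes with enough counts for its filter. That test called 16.4% of all genes tested, 7.86% as higher and 8.57% as lower in cko NSCs. Of the 7 members, 6 passed the filter. In *Cdk18*, *Cdk14* and *Ccny* the 5 libraries did not overlap between genotypes, with cko below ctrl, as in 24.3% of all genes tested. The same 3 members lay past the threshold for a call, and *Cdk18* past that of the study, a log2 fold change beyond 0.9 with an unadjusted p under 0.01, where 4.17% of all genes were lower. The study applied its threshold to DESeq2 results, and here it was applied to the edgeR fit of 5 libraries. These counts of members describe the values for which the family was chosen, so they are no test of its members and nothing is read from them. The median log2 fold change was -0.19 over the 6 members and -0.0026 over all genes tested.

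**Figure D1:**
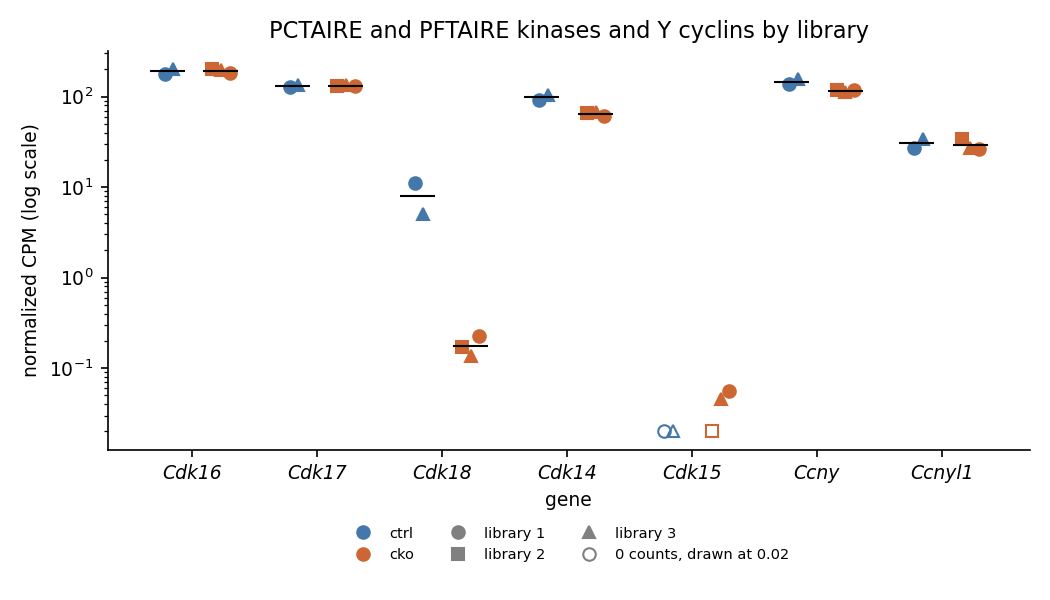
Normalized CPM (log scale) of the 7 genes in ctrl libraries 1 and 3 (blue) and cko libraries 1, 2 and 3 (orange), with bars at the means and open symbols for libraries with 0 counts. *Cdk18* sits between 5.07 and 11.0 CPM in ctrl and between 0.138 and 0.224 in cko NSCs, while the symbols of *Cdk16*, *Cdk17* and *Ccnyl1* overlap.

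Among the PCTAIRE kinases, *Cdk18* (ENSMUSG00000026437, chromosome 1, 132112237 to 132139684, minus strand) had 251 and 95 counts in ctrl libraries 1 and 3, and 4, 4 and 3 counts in cko libraries 1, 2 and 3. In normalized CPM these were 11.0 and 5.07 against 0.224, 0.171 and 0.138. The cko libraries lay at or just above a floor set here at 3 counts, which is 0.129 to 0.168 CPM. The level that remained therefore rests on 3 or 4 counts per library. The 2 ctrl libraries differed 2.16-fold, a gap that on the scale of log2(CPM + 0.5) was wider than in 96.3% of the genes tested, but the lower of them was still above every cko library. The log2 fold change was -5.47 (standard error 0.46), and 5 of the 16710 genes had a lower one. Taking the libraries in pairs, the ctrl value was 22.6 to 79.5 times the cko value. On pooled counts, 346 in ctrl against 11 in cko, the ctrl level was 47.5 times the cko level (95% exact interval 26.2 to 96.0, for counting error only). Without ctrl library 1 the log2 fold change was -4.82, and without ctrl library 3 it was -5.92. The antisense gene *Gm29629* overlaps exons of *Cdk18* and held at most 1 count in any of the 5 libraries.

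*Cdk16* (ENSMUSG00000031065, chromosome X, 20687954 to 20699880, plus strand), the kinase of highest CPM in the family, was measured at 178 and 202 normalized CPM in ctrl and at 181, 202 and 195 in cko libraries. The ranges nearly coincided, and the log2 fold change was 0.02 (standard error 0.088). The gene is X-linked, and the libraries differed in sex-linked transcripts. *Xist*, the RNA of the inactive X chromosome, was at 2889 and 2557 normalized CPM in ctrl and at 787 to 894 in cko libraries, and 4 Y-linked genes summed to 94.7 and 116 in ctrl and to 230 to 256 in cko libraries. All 5 libraries held both kinds of transcript, in different proportions between genotypes. That difference runs along the whole contrast, so it cannot be told apart from genotype for any member or list. Its part in the *Cdk16* values and in all others given here was not tested.

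*Cdk17* (ENSMUSG00000020015, chromosome 10, 93160875 to 93267071, plus strand), the other PCTAIRE kinase, was the steadiest member. It was at 128 and 134 normalized CPM in ctrl and at 131, 131 and 133 in cko libraries, so that all cko values lay between the ctrl values. The log2 fold change was 0.0071 (standard error 0.068). Exons of *Elk3* overlap it on the opposite strand, and the sources used here do not say whether the counting used strand.

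Of the PFTAIRE kinases, *Cdk14* (ENSMUSG00000028926, chromosome 5, 4803391 to 5420312, minus strand) was at 90.4 and 104.9 normalized CPM in ctrl and at 61.2, 65.1 and 67.7 in cko libraries. Every cko library was below both ctrl libraries. The log2 fold change was -0.59 (standard error 0.091), a level 33.7% lower. *Cdk15* (ENSMUSG00000026023, chromosome 1, 59256906 to 59352993, plus strand) had 0 counts in 3 of the 5 libraries and 1 count in each of cko libraries 1 and 3. It was not detectable at this depth and was not tested.

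Of the cyclins, *Ccny* (ENSMUSG00000024286, on chromosome 18), which encodes the activating partner of CDK14 and CDK16, was at 137 and 156 normalized CPM in ctrl and at 119, 117 and 113 in cko libraries. The groups did not overlap, and the log2 fold change was -0.33 (standard error 0.081), a level 20.3% lower. The log2 fold change was -0.43 without ctrl library 1 and -0.23 without ctrl library 3. Without ctrl library 3, without any of the 3 cko libraries or with a replicate block, *Ccny* no longer lay past the threshold for a call. *Ccnyl1* (ENSMUSG00000070871, chromosome 1, 64690455 to 64725644, plus strand), its paralogue, was at 27.0 and 33.7 normalized CPM in ctrl and at 26.1, 34.2 and 27.3 in cko libraries. These ranges overlapped. The log2 fold change was -0.05 (standard error 0.15), and its sign turned positive when ctrl library 3 (0.12) or cko library 1 (0.01) was left out.

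**Figure D2:**
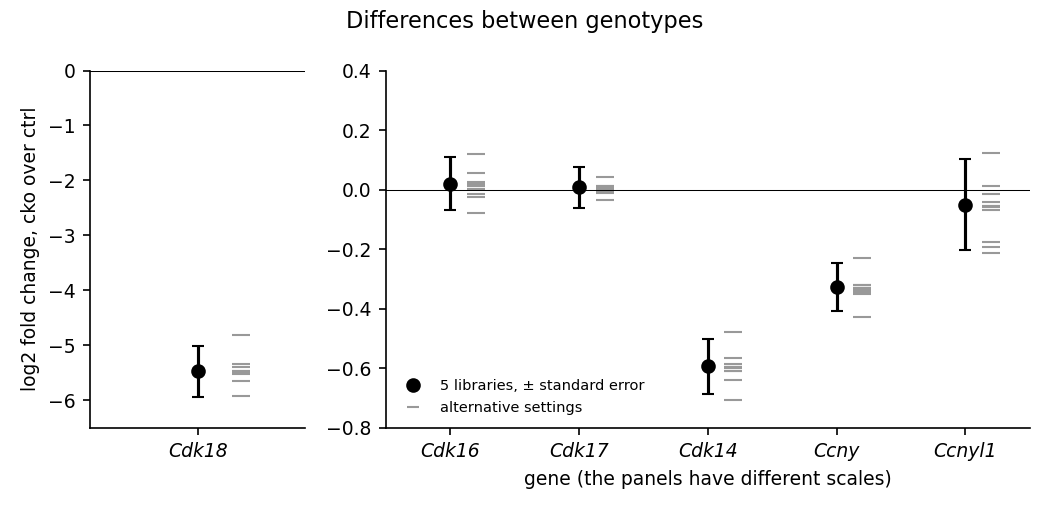
Log2 fold change of cko over ctrl for the 6 members tested (black points, with the standard error) and under the alternative settings (grey dashes), with *Cdk18* on its own scale. *Cdk18*, *Cdk14* and *Ccny* stay below 0 in each setting drawn, and *Cdk16*, *Cdk17* and *Ccnyl1* fall on both sides of 0.

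Levels of different genes were compared as normalized CPM per kb of annotated exon sequence. In ctrl NSCs the order was *Cdk16* (43.4 ± 3.92, SD, n = 2), *Ccny* (24.0 ± 2.18), *Cdk17* (21.5 ± 0.65), *Ccnyl1* (8.78 ± 1.38), *Cdk14* (5.17 ± 0.54) and *Cdk18* (1.68 ± 0.88). In cko NSCs *Cdk16* was again first (44.0 ± 2.44, SD, n = 3) and *Cdk17* (21.6 ± 0.22) stood before *Ccny* (19.1 ± 0.47). The order of the neighbours *Ccny* and *Cdk17*, close in ctrl NSCs, was not tested. The order of the lower members depended on the length used. Per kb of the longest coding transcript, *Cdk14* was at 19.0 in ctrl NSCs in place of 5.17, above *Ccnyl1* (9.25), and *Cdk17* (36.3) was above *Ccny* (25.4). For *Cdk14* the 2 lengths differ most, since its annotated exons add up to 18877 bases and its longest coding transcript has 5145. The share of *Cdk18* in the summed per-kb level of the 5 kinases was 3.35% and 1.42% in ctrl libraries 1 and 3 and 0.0414% to 0.0710% in cko libraries. *Cdk16* made up 59.1% and 61.8% of that sum in ctrl and 62.4% to 64.9% in cko libraries. The sum itself was 68.7 and 74.7 CPM per kb in ctrl and 66.1 to 71.0 in cko libraries, so the ranges of the whole kinase pool overlapped. *Ccny* was the major cyclin, with 72.3% and 74.2% of the per-kb sum of both cyclins in ctrl and 66.0% to 72.1% in cko libraries. The kinase shares also depended on the length used. Per kb of the longest coding transcript, *Cdk16* made up 49.4% and 51.3% in ctrl and 53.4% to 55.8% in cko libraries. *Cdk18* then made up 2.29% and 0.967% in ctrl libraries 1 and 3 and 0.0289% to 0.0496% in cko libraries.

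**Figure D3:**
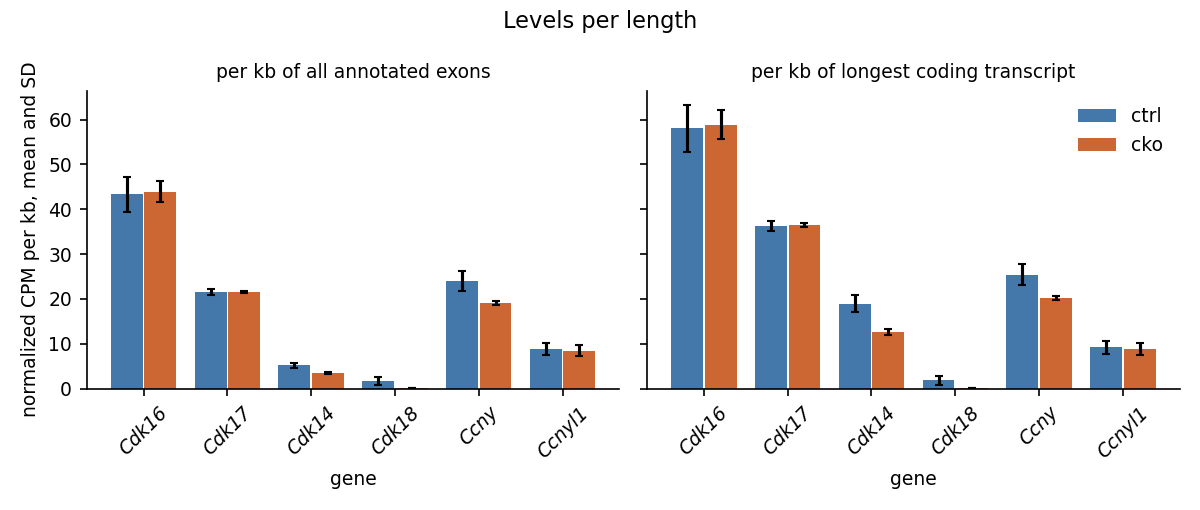
Mean normalized CPM per kb (bars, with the SD over 2 ctrl or 3 cko libraries) per kb of all annotated exons (left) and of the longest coding transcript (right). *Cdk16* is the highest member in both genotypes and with both lengths, and *Cdk14* is the one whose level depends most on the length, 5.17 against 19.0 in ctrl NSCs.

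The profiles most like *Cdk18*, *Cdk14* and *Ccny* were found among 14346 other genes, as a description. The measure was the root mean square (RMS) difference of log2(CPM + 0.5) over the 5 libraries, after centring each gene. The 0.5 CPM added is larger than every cko value of *Cdk18* (0.138 to 0.224 CPM) and shrinks its drop. Closeness to *Cdk18* therefore depends on it, and other offsets were not tried. For *Cdk18* the closest were *Six3*, a homeobox gene (RMS difference 0.26), the neighbouring transcript *Six3os1* (0.398) and *9630013A20Rik* (0.41). *Six3* was at 30.1 and 24.2 normalized CPM in ctrl and at 2.29, 1.84 and 1.43 in cko libraries. For *Cdk14* they were *Dap*, *Cluh* and *Zfp956* (0.021 to 0.029), and for *Ccny* they were *Wnk1*, *Ankrd29* and *Lrrc42* (0.018 to 0.024). The distances were larger for *Cdk18*, whose own values span a wider range, than for *Cdk14* and *Ccny*.

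The gene lists beside the family were chosen with earlier results of these data known and hold no member of it. Because *Cdk18* is linked to oligodendrocyte maturation, markers of that lineage were read out in the same libraries. Of 20 markers, 18 were tested, 12 were called lower and 2 higher in cko NSCs, against 8.57% and 7.86% of all genes. The 3 markers of highest level were the early lineage factors *Olig1* (log2 fold change 0.63, standard error 0.11, adjusted p = 0.011 in edgeR) and *Olig2* (0.38, adjusted p = 0.044 in edgeR), which rose, and *Gpr17*, a receptor of committed precursors. *Gpr17* was at 703 and 742 normalized CPM in ctrl and at 286, 171 and 196 in cko libraries (log2 fold change -1.73, adjusted p = 0.00263 in edgeR). The 12 lower markers also included the myelin gene *Mbp* (-4.16), named after its values were seen, while *Mog* (-0.05) was not called. The lineage factors *Sox10* (-1.90) and *Nkx2-2* (-0.60) were among the lower markers too, so the lineage factors went in both directions. The precursor markers *Pdgfra* (0.45) and *Cspg4* (0.24) were not called. These lineage factors and precursor markers were likewise named after their values were seen. Without cko library 2 or cko library 3 no marker was called higher, and the lower calls numbered 11 to 13 when any library was left out. The summed level of the list was 4464 and 5140 normalized CPM in ctrl and 3916 to 4027 in cko libraries. The list median was a log2 fold change of -1.17. No marker was at 0 in every library. Markers of other cell types differed too. Of 8 astrocyte markers, 4 were called lower and 0 higher, with 0 higher also at an unadjusted p under 0.05, and their summed level was 3242 and 2255 normalized CPM in ctrl and 1038 to 1705 in cko libraries. The part of these cells in the *Cdk18* difference was not tested, and in bulk RNA fewer cells of a type and less RNA per cell cannot be told apart.

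**Figure D4:**
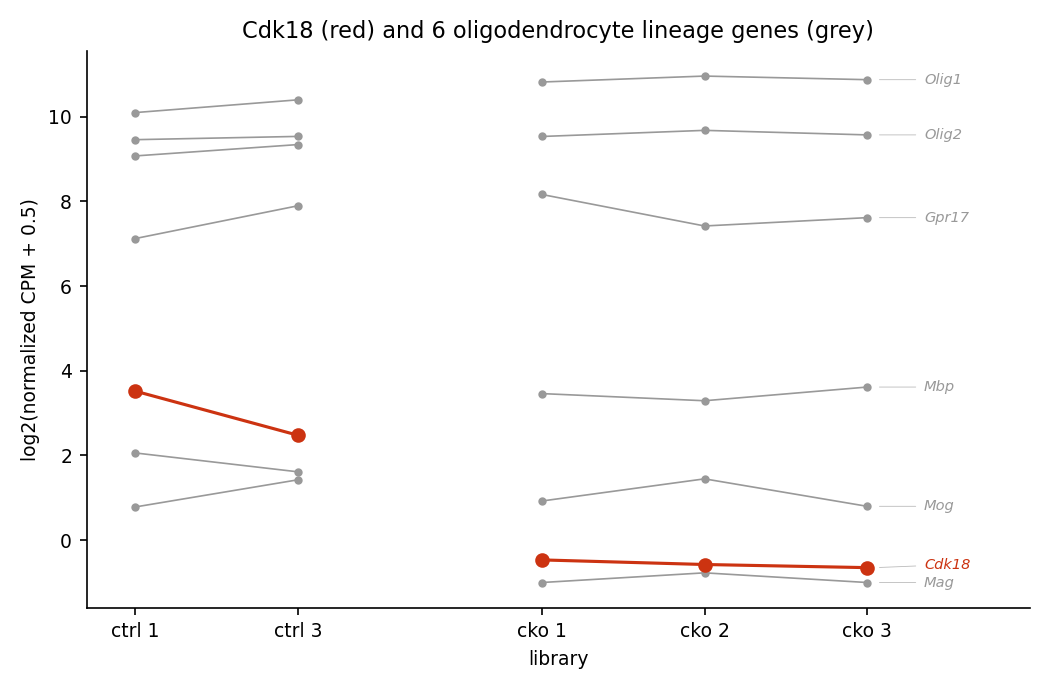
Log2(normalized CPM + 0.5) of *Cdk18* (red) and of 6 of the 18 oligodendrocyte lineage genes tested (grey) in each library. These are *Olig1*, *Olig2*, *Gpr17*, *Mbp* and *Mog*, given with values in the text, and *Mag*, named after its values were seen. The lines only join the values of a gene within a genotype. *Cdk18* and *Mag*, the tested marker of lowest log2 fold change (-6.38), meet at the bottom in cko NSCs, where the 0.5 CPM added outweighs their values. *Olig1* and *Olig2* stand higher in cko than in ctrl NSCs, and the lineage factors *Sox10* and *Nkx2-2*, which were lower, are not drawn.

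The labelled cell type was checked against 12 NSC markers, which were all detected, with a summed level of 8014 to 10120 normalized CPM over the 5 libraries. Of these, 5 were called higher and 1 lower in cko NSCs, against 7.86% and 8.57% of all genes tested. Microglial markers summed to less than 1 CPM in each library, with *Cx3cr1*, *Tmem119* and *Trem2* at 0, endothelial markers to 4.19 to 6.71 CPM with *Cdh5* at 0, and mural and meningeal markers to less than 5 CPM. Of 10 neuronal markers, 7 were tested, 2 were called higher and 1 lower, and the sum was 1134 to 1306 CPM.

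The LRP6 arm of Wnt signalling, on which CDK14 and cyclin Y act, comprised 30 genes and all were tested. In edgeR 5 were called lower and 2 higher in cko NSCs, 23.3% of the list in either direction, against 16.4% of all genes tested. *Lrp6* itself was at 129.5 and 129.5 normalized CPM in ctrl and at 135 to 138 in cko libraries (log2 fold change 0.07, adjusted p = 0.49 in edgeR). The 5 lower genes encode Frizzled receptors. *Fzd4* was at 13.0 and 15.0 normalized CPM in ctrl and at 6.20 to 8.32 in cko libraries (log2 fold change -0.96, standard error 0.17, adjusted p = 0.012 in edgeR). *Fzd5* had a log2 fold change of -0.69 and *Fzd2* of -0.65, and *Fzd1* (-0.62) and *Fzd8* (-0.49), named after their values were seen, completed the 5. The list holds 5 other Frizzled genes, also named after their values were seen, with adjusted p-values of 0.0717 to 0.565 in edgeR. *Fzd3* (0.26) and *Fzd6* (0.66) had positive log2 fold changes and *Fzd7* (-0.36), *Fzd9* (-0.73) and *Fzd10* (-0.21) negative ones. The Frizzled genes were not fixed as a list of their own and were not tested as one. The higher genes were *Rnf43*, an E3 ligase that removes Frizzled receptors from the surface, with 2.97 and 5.28 normalized CPM in ctrl and 11.0 to 13.3 in cko libraries (log2 fold change 1.57, adjusted p = 0.00859 in edgeR), and *Ctnnb1*, the gene of β-catenin (0.33, adjusted p = 0.026 in edgeR). The number of lower calls was 8 without ctrl library 1 and 3, 2 and 1 without cko libraries 1, 2 and 3, and that of higher calls was 4 without ctrl library 1, 1 without cko library 1 or 2, and 0 without cko library 3. The median log2 fold change of the list was -0.09.

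Of 19 other genes of the CDK and CDK-like families, 18 were tested and 3 were called higher. These were the cell cycle kinases *Cdk6* (log2 fold change 1.33), *Cdk1* (1.29) and *Cdk4* (0.65, adjusted p = 0.00435 in edgeR). No gene was called lower in edgeR or DESeq2, with 2 lower at an unadjusted p under 0.05, and 1 was called lower without ctrl library 1 or without ctrl library 3. The 3 calls, all higher, were 16.7% of the list genes tested, against 7.86% of all genes called higher and 16.4% called in either direction. The list median was -0.02.

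Of the 7 genes of the 14-3-3 proteins, which bind phosphorylated cyclin Y, *Ywhah* (log2 fold change 0.34, adjusted p = 0.040 in edgeR) and *Ywhaq* (0.31, adjusted p = 0.046 in edgeR) were called higher and 0 lower, with 0 lower also at an unadjusted p under 0.05 and in DESeq2. Neither was called without ctrl library 1 or without any of the 3 cko libraries, nor with a replicate block. The 2 calls were 28.6% of the list, against 7.86% of all genes called higher and 16.4% called in either direction. The list median was 0.12. Of 10 genes of other partners and substrates, *Prc1*, a spindle midzone protein, rose from 77.2 and 73.4 to between 132 and 175 normalized CPM (log2 fold change 1.05, adjusted p = 0.00297 in edgeR). *Cdk5r1*, the gene of the CDK5 activator p35, rose from 43.5 and 44.5 to between 60.2 and 75.2 (0.61, adjusted p = 0.011 in edgeR). These 2 calls were 20% of the list, against 7.86% of all genes called higher and 16.4% called in either direction. No gene of this list was called lower in edgeR or DESeq2, and 1 was lower at an unadjusted p under 0.05. The higher calls numbered 4 without ctrl library 1 or cko library 1 and 1 without cko library 2, and the list median was 0.30.

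**Figure D5:**
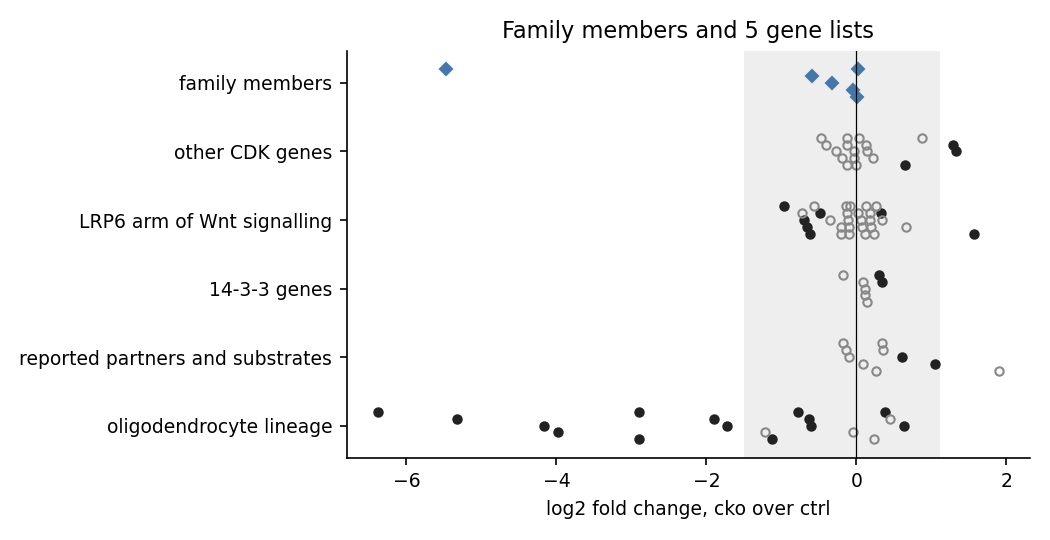
Log2 fold change of cko over ctrl for each tested gene of the family and of the 5 lists (filled where called and open where not, with the family as diamonds that mark no call, spread vertically for legibility), with the line at the median and the grey band over the central 95% of all tested genes (-1.48 to 1.10). *Cdk18* at -5.47 lies in the range of the lower oligodendrocyte lineage genes, and *Cdk14* and *Ccny* lie inside the band.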

How the data were processed

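Per the study's methods, reads were checked with FastQC, filtered with NGSQC and aligned to mm10 with HISAT2. The submitters' processing notes name GRCm39 instead. The deposited table gives counts per Ensembl gene, without normalization, in 6 columns. That of ctrl replicate 2 equalled the rounded-up mean of ctrl libraries 1 and 3, so it was not read as raw counts of a library. The counting tool, gene annotation and strand setting are not given in the sources used here. Names, positions and lengths came from GENCODE M21 (GRCm38), which matched 31836 of 32493 gene IDs. The members, the lists and the comparison of 5 libraries were chosen with earlier results of these data known.

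The comparison used edgeR 4.0.16 (filterByExpr, TMM, quasi-likelihood test) under R 4.3.3, and standard errors were taken from the fold change and its F statistic. With 17883796 to 23335736 counts per library, a floor of 3 counts was 0.129 to 0.168 CPM. This floor and the interval given for *Cdk18* cover only counting error. Genes named were the 7 members, the 3 closest profiles to each member past the threshold for a call (mean of at least 1 CPM, 0.5 CPM added before the log2), up to 3 called genes per list and direction by size of change, and the 3 oligodendrocyte markers of highest level. Others are marked as named after their values were seen or serve as checks. Alternatives were DESeq2 1.42.0, median-of-ratios factors, other filters, the replicate block, all 6 columns, each library left out, the study's threshold and other lengths. Of these steps, only the edgeR and DESeq2 fits were tested on simulated counts. *Cldn5*, on the endothelial list, was not analysed here. Coding sequences were aligned with Biopython 1.88.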

Additional observations from a re-analysis of the deposited data

How the results depend on the processing

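Member values describe the contrast for which the family was chosen, so their range over settings is no support for a difference. Over 11 alternative fits the log2 fold change was -0.71 to -0.48 for *Cdk14* and -0.43 to -0.23 for *Ccny*, and over 10 it was -5.92 to -4.82 for *Cdk18*, which the minimum of 10 counts in every library removed. The fit of all 6 columns takes the mean of ctrl libraries 1 and 3 as a further ctrl library, so its n is larger than the number of distinct samples, and its errors and p-values are too small. Fits without ctrl library 1 or 3 leave 1 ctrl library, which is assumed to vary like the cko libraries. Over the fits that left out a library, lower genes past the threshold numbered 2 to 3 among members, 1 to 8 in the Wnt list, 0 to 1 among 14-3-3 genes, 0 to 1 among other CDK genes and 11 to 13 among oligodendrocyte markers. Higher calls numbered 0 to 4 in the Wnt list, 0 to 2 among 14-3-3 genes, 1 to 4 among partners and 0 to 3 among oligodendrocyte markers. DESeq2 called 4 partners higher, and fits with no filter called 5. All 6 columns gave 2 other CDK genes lower, 6 Wnt genes higher, and 6 partners higher and 1 lower. Median-of-ratios factors and the minimum of 10 counts each left 1 14-3-3 gene and 1 oligodendrocyte marker higher. The study's threshold left 1 member lower, 1 Wnt gene higher and 1 lower, 0 14-3-3 genes and 0 oligodendrocyte markers higher. The cause was not tested.

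The replicate numbers are shared by ctrl and cko libraries 1 and 3, whose deviations correlated weakly (r = 0.14 across 16710 genes, which are not replicates), and the sources tie no number to a litter, so the numbers were not taken as pairs. With the replicate block, 2 members lay past the threshold, without *Ccny*, and 1 Wnt gene and 0 14-3-3 genes were called higher.

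Per kb of the longest coding transcript, *Cdk14* was at 19.0 CPM per kb in ctrl and 12.6 in cko, *Cdk16* at 58.1 and 58.9, *Cdk17* at 36.3 and 36.5, and *Ccny* at 20.2 in cko NSCs. Per kb of all annotated exons, scaling to total counts moved the level of each member by less than 1 SD, with *Cdk15* not included. Leaving out a library cannot move a mean by 1 SD in groups this small, so nothing is read from that setting. At 3 or 4 counts, the *Cdk18* level in cko NSCs is limited by depth.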
